A study of Mus musculus with 34 samples.

Results

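The cytotoxic granule genes described here are 8 listed genes, Gzma, Gzmb, Gzmc, Gzmm, Prf1, Nkg7, Ctsw and Srgn, taken by symbol from the deposited gene tables and not by their measured values. All 8 were among the 24505 gene names of the Lck-Cre table, and 6 of them were among the 2076 genes of the Vav1-iCre table, where Gzmm and Ctsw were not analysed. RNA sequencing was done on early thymocytes of C57BL6/J mice in which no, 1 or both alleles of Bcl11b were floxed. Bcl11b encodes a zinc-finger transcription factor that T-lineage commitment needs. Every mouse group carried a Cre transgene, including those without a floxed allele. In the Lck-Cre set, Bcl11b +/+ cells gave 4 WT DN2 and 5 WT DN3 libraries, flx/+ cells gave 5 HET DN2 and 6 HET DN3 libraries, and flx/flx cells gave 5 HOM libraries. DN2 and DN3 are successive stages of CD4- CD8- thymocytes. The DN2 cells were sorted as YFP-negative and CD25-positive, and the DN3 and HOM cells as YFP-positive and CD25-positive, so stage and the yellow fluorescent reporter change together and cannot be told apart. The Vav1-iCre set held 2 WT, 4 HET and 3 HOM libraries, all YFP-positive and CD25-positive. Lck-Cre acts in developing thymocytes, whereas Vav1-iCre acts from blood stem cells onward. The labels give no ages and are silent on whether replicate libraries are separate animals, so each p-value measures the spread between libraries only.

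Cytotoxic granules are secretory lysosomes of natural killer (NK) cells and cytotoxic T cells. They store granzymes, which are serine proteases, on the proteoglycan core of serglycin (Srgn), together with perforin (Prf1), which opens the target membrane for them. Nkg7 encodes a granule membrane protein needed for release, and Ctsw encodes cathepsin W, a cysteine protease of cytotoxic lymphocytes. Early thymocytes are not killer cells, but some of these transcripts, Gzma and Srgn among them, are known from immature lymphocytes.

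Lck-Cre libraries held 15772841 to 43105091 counts. Levels are given as RPKM, counts divided by exon length and by the library total, which compares genes per length. Bcl11b itself was at 106.3 ± 13.5 RPKM (SD, n = 5) in WT DN3, 104 ± 11.8 (n = 6) in HET DN3 and 49.6 ± 10.3 (n = 5) in HOM. It was at 148 ± 12.4 RPKM (n = 4) in WT DN2 and 145 ± 15.1 (n = 5) in HET DN2. These levels set HOM apart but not HET from WT, so they do not check the HET label. The Bcl11b transcript was still counted in HOM, and the counts do not tell deleted from intact transcripts. The 5 early T cell markers summed to between 1351 and 2343 RPKM in all 25 libraries, with HOM (1351 to 1582) below every WT DN3 library (1692 to 2070). There were 8 libraries that stood apart. Libraries 1 and 2 of HET DN2, 2 and 3 of HET DN3, and 2 and 3 of HOM held the epithelial transcript Clu at 73.6 to 709 RPKM. Library 2 of WT DN2 and library 1 of HET DN3 held Cd4 at 69.4 and 80.3 RPKM, and the effector chemokine transcript Ccl5 at 56.9 and 29.4 RPKM. Results that rest on these libraries are given with and without them. In such bulk libraries, fewer expressing cells and less RNA per cell cannot be told apart.

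The files place the genes on mm9. Gzma lies at chr13:113884035-113891189 on the minus strand, Gzmb at chr14:56877673-56881171 and Gzmc at chr14:56850238-56853494, both on the minus strand in the granzyme cluster. Nkg7 lies at chr7:50692508-50693616 on the plus strand, and Srgn at chr10:61957176-61970503 on the minus strand. Promoters were read from RefSeq on build GRCm38.p6, where 7 of the 8 genes were matched and Ctsw was not. The 250 bases before the start are shown for 3 genes whose transcripts were higher in HOM than in WT DN3 and for Nkg7, which was lower. Capitals mark the core letters TGTGGT of the RUNX motif, or ACCACA on the other strand.
Gzma, chr13:113100982-113101231, minus strand: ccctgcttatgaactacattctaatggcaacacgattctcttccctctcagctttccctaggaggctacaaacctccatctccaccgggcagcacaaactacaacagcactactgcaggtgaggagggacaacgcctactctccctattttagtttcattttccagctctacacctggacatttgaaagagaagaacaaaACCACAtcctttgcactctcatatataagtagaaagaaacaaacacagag
Gzmc, chr14:56234658-56234907, minus strand: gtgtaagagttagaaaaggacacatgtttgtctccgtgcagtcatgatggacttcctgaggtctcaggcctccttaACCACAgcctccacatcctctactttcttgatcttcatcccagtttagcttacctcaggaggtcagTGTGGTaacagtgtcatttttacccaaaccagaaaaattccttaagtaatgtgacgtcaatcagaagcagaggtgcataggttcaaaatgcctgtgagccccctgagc
Nkg7, chr7:43436888-43437137, plus strand: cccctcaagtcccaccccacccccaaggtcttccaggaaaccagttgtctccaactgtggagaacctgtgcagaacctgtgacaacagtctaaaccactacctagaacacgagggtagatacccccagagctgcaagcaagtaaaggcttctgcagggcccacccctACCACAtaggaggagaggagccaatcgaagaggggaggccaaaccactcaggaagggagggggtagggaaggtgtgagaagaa
Srgn, chr10:62527446-62527695, minus strand: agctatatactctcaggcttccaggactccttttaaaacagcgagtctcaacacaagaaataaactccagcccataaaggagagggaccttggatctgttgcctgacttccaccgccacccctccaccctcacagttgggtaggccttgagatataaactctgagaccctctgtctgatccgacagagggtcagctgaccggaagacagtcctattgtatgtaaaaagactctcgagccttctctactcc
The Gzma match spans bases 50 to 45 before the start and the Nkg7 match bases 83 to 78. Gzmc holds 2 matches, at bases 174 to 169 and 108 to 103, and Srgn holds none before the start shown. Srgn and Gzmm each have 2 starts listed, and only the first listed start of each gene was searched. The motif was chosen with the expression results known. It occurred in 6 of the 7 matched promoters (Gzma, Gzmb, Gzmc, Gzmm, Prf1 and Nkg7) and in 14.2% of 27025 mouse promoters of the same length. A match describes letters and is no evidence of binding, and the genes that hold it moved in both directions.

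Gzma, the tryptase among the granzymes, was the most abundant granzyme transcript in every library. Its level was 64.3, 77.6, 117 and 128 RPKM in the 4 WT DN2 libraries and 189, 183, 229, 203 and 174 RPKM in the 5 WT DN3 libraries. HET DN2 libraries held 49.4, 150.3, 76.2, 70.6 and 99.8 RPKM, and HET DN3 libraries ranged from 219 to 363 RPKM with a median of 316. HOM libraries held 494, 425, 507, 379 and 752 RPKM. Every DN3 library was above every DN2 library, and every HOM library was above all others. The means were 96.7 ± 30.6 (SD, n = 4), 196 ± 21.5 (n = 5), 89.3 ± 38.6 (n = 5), 303 ± 59.2 (n = 6) and 511 ± 144 RPKM (n = 5) for, in turn, the WT DN2, WT DN3 and HET DN2 libraries and those of HET DN3 and HOM. From high to low the order was HOM, HET DN3, WT DN3, WT DN2 and HET DN2. The neighbours HET DN3 and WT DN3, and WT DN2 and HET DN2, did not differ by the test described with the comparisons.

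Srgn, the storage proteoglycan, followed another order. It was at 128, 166, 161 and 151 RPKM in WT DN2 and at 63.7, 59.8, 69.4, 81.3 and 95.9 RPKM in WT DN3, and these groups did not overlap. HET DN2 libraries held 111, 125, 153, 156 and 212 RPKM. HET DN3 ranged from 57.2 to 211 RPKM with a median of 87.5, and its highest value came from library 1, which carries Cd4 and Ccl5, while the next was 96.3. HOM libraries held 199, 191, 168, 170.1 and 213 RPKM, above every WT DN2 and WT DN3 library. Without the Cd4-rich library the HET DN3 mean went from 102 ± 55.5 (SD, n = 6) to 79.9 ± 15.7 RPKM (n = 5).

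Ctsw was at 13.5, 23.8, 15.5 and 15.7 RPKM in WT DN2 and at 9.05, 6.93, 9.65, 11.9 and 9.63 RPKM in WT DN3. HET DN2 held 8.97, 24.4, 13.5, 14.5 and 12.7 RPKM, and HET DN3 ranged from 4.62 to 17.8 RPKM with a median of 10.1. HOM libraries held 28.9, 19.5, 27.5, 13.2 and 27.4 RPKM, all above WT DN3. Libraries 2 and 4 of HOM lay within the range of HET DN2, while the other 3 were above every library of the other groups.

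Nkg7, the granule membrane protein, ran opposite to Gzma. WT DN2 libraries held 62.2, 89.4, 84.2 and 79.2 RPKM, and WT DN3 libraries held 26.5, 21.0, 28.6, 31.2 and 48.8 RPKM. HET DN2 libraries held 57.8, 35.5, 81.5, 74.4 and 125 RPKM. HET DN3 libraries ranged from 8.11 to 29.7 RPKM with a median of 19.1, and HOM libraries held 11.4, 8.29, 12.0, 5.05 and 30.7 RPKM. Both DN2 groups were above both HET DN3 and HOM without overlap. HOM overlapped WT DN3 through its library 5 alone. The highest WT DN3 value belonged to library 5, where Cpa3, a progenitor and mast cell transcript, was at 26.2 RPKM against 0.80 to 1.01 RPKM in the other 4 libraries of that group. The part of that library in the Nkg7 level was not tested.

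The killing genes proper were scarce. Gzmb, a granzyme that cuts after aspartate, was at 1.56, 33.7, 0.662 and 0.354 RPKM in WT DN2 and at 0.0191 to 1.5 in WT DN3. In HET DN2 it was at 0, 0.247, 1.39, 1.78 and 6.89 RPKM. HET DN3 ranged from 0 to 6.75 RPKM with a median of 1.39, and HOM libraries held 6.29, 0.0529, 0.356, 1.32 and 0.57 RPKM. A single library or a few set each group's mean, and all groups overlapped. Prf1 was at no more than 1.73 RPKM in any library and had its highest values in library 2 of WT DN2 (1.73), library 1 of HET DN3 (0.844) and library 1 of HOM (0.827 RPKM). Gzmm, a granzyme that cuts after methionine and leucine, lay between 0.154 and 1.38 RPKM in all 25 libraries. Prf1 and Gzmm did not reach the mean of 1 RPKM in any group that was set for testing.

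The highest Gzmb and Prf1 levels came from a library with high Ccl5. Library 2 of WT DN2 was the highest of the 25 for Gzmb, for Prf1 and for Ccl5, and its summed level of 9 mature T cell markers was 595 RPKM, against 392 to 411 RPKM in the other WT DN2 libraries. Library 1 of HOM held Ccl5 at 23.2 RPKM and library 4 of HET DN2 at 10.9 RPKM. Library 4 of HOM, in contrast, held Ccl5 at 16.0 RPKM with Gzmb at only 1.32 RPKM. The summed level of 6 NK markers was 6.85 RPKM in library 2 of WT DN2 and 0.535 to 2.44 RPKM in HOM, against 0.15 to 0.5 RPKM in WT DN3. The sums of HET DN3 (0.148 to 1.61 RPKM) and HET DN2 (0.104 to 1.57 RPKM) overlapped those of HOM. The NK receptor transcript Ncr1 was at 0 counts in WT DN2, WT DN3 and HET DN2. The part of mature T or NK cells in the Gzmb and Prf1 levels was not tested. The 9 mast cell and basophil markers summed to no more than 1.77 RPKM in any library.

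**Figure D1:**
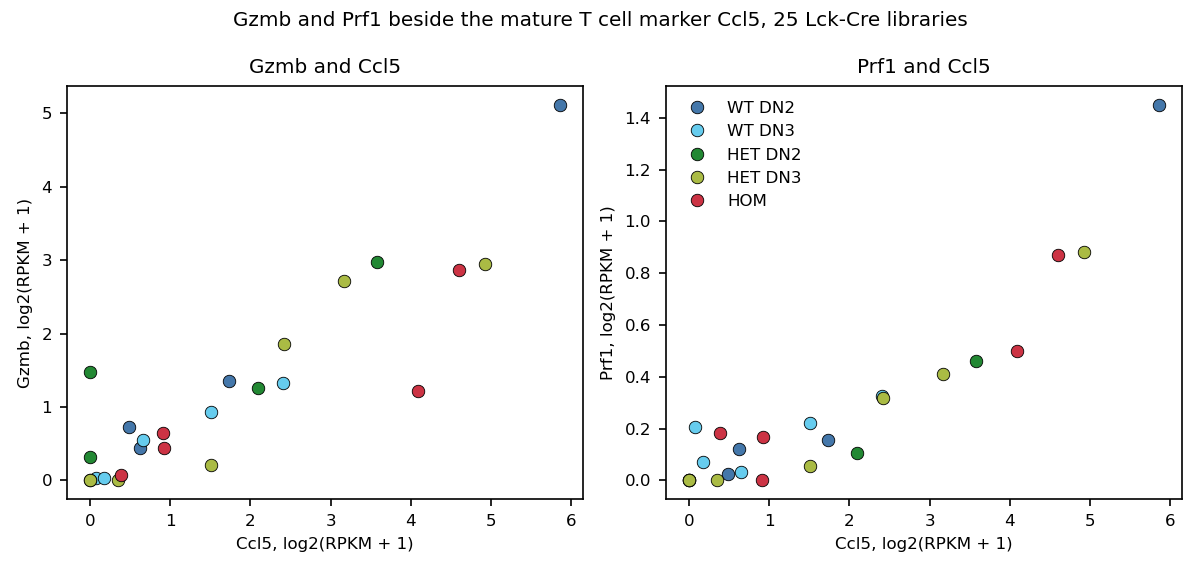
Level of Gzmb (left) and Prf1 (right) against Ccl5 in the 25 Lck-Cre libraries, each axis as log2(RPKM + 1), 1 point per library and 1 color per group. The point at the top right of both panels is library 2 of WT DN2, with Ccl5 at 56.9, Gzmb at 33.7 and Prf1 at 1.73 RPKM.

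Gzmc, a granzyme of the mouse chromosome 14 cluster, was close to 0 outside a few libraries. The WT DN3 libraries had 1, 0, 0, 0 and 0 counts, WT DN2 had 1, 9, 1 and 2, and HET DN2 had 0, 0, 0, 3 and 65. HET DN3 libraries had between 0 and 6 counts, and HOM libraries had 22, 0, 5, 59 and 34. In the 4 WT DN3 libraries at 0, a count of 0 allows up to 3 counts, or 0.0750 to 0.157 RPKM. HOM library 2 and 3 of the HET DN2 libraries, at 0 counts, were therefore as low as WT DN3. Over the libraries of each group, 120 counts in HOM stood against 1 in WT DN3, a depth-corrected ratio of 136 with a 95% interval of 23.9 to 5400 from counting error only. Gzmc has close relatives in the cluster, and reads of near-identical copies could be assigned to it. Gzmf and Gzmn were at 0 counts in all 25 libraries, Gzmd had 1, Gzme had 7 and Gzmg had 6 counts over the 5 HOM libraries, and Gzme had 16 in HET DN2.

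**Figure D2:**
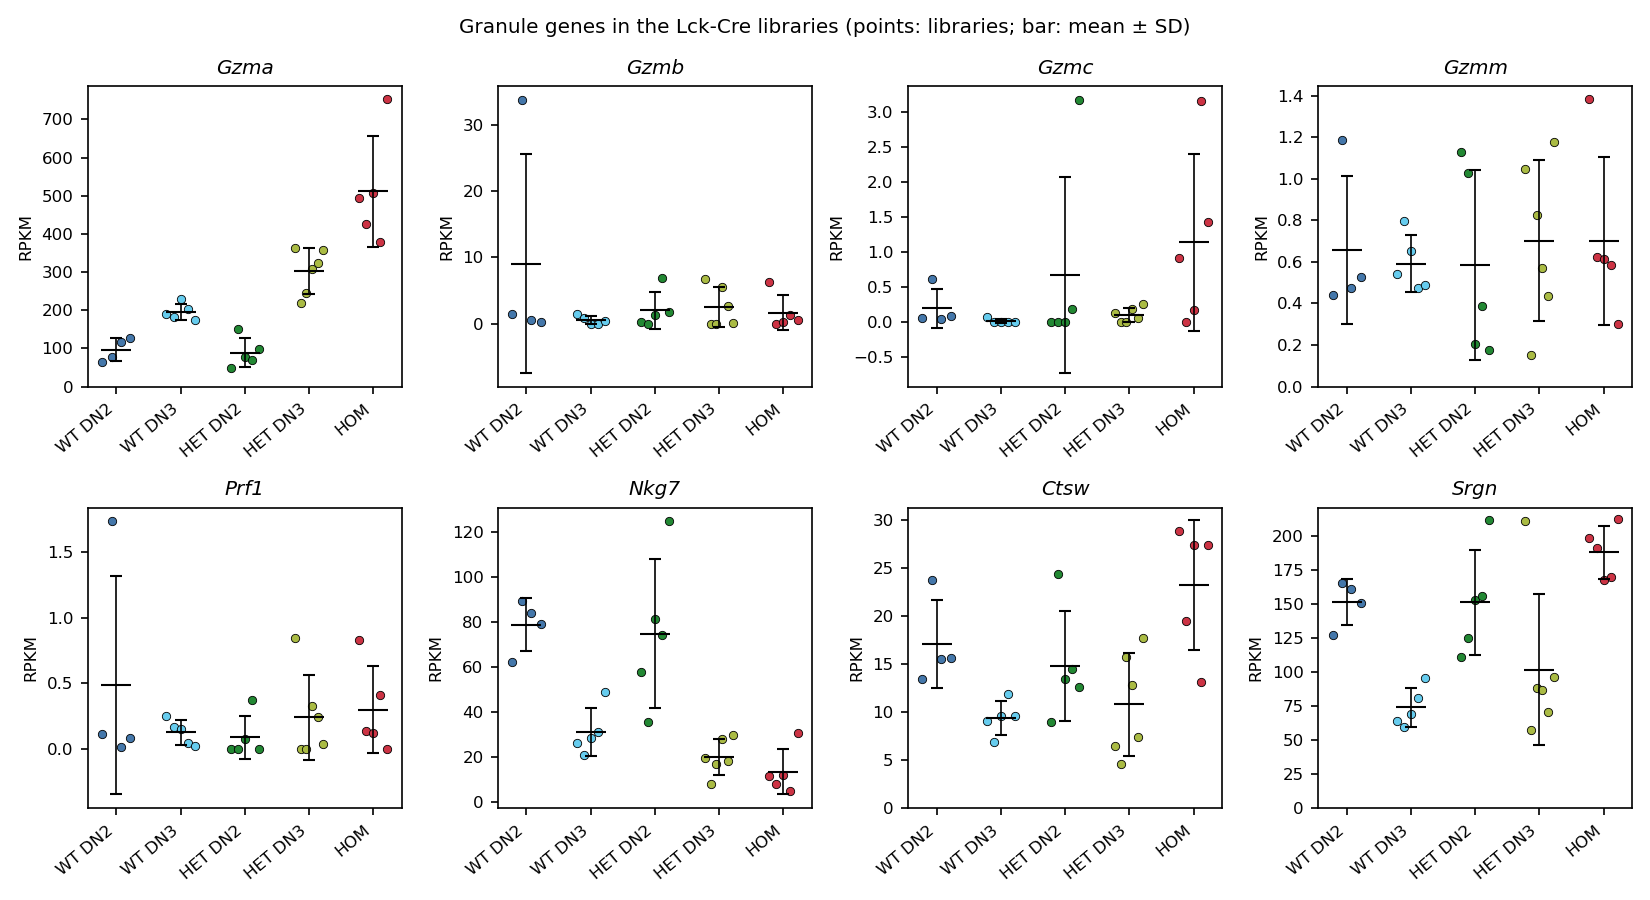
RPKM of the 8 genes in the 25 Lck-Cre libraries, 1 panel per gene with its own axis, points for libraries and bars for the mean ± SD of each group. Mean Gzma is 96.7 RPKM in WT DN2 and 511 in HOM, mean Nkg7 is 78.8 and 13.5 RPKM, and the highest Gzmb value, 33.7 RPKM, is that of a single WT DN2 library.

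Counting the 8 genes together, the summed level was 354 ± 57.0 RPKM (SD, n = 4) in WT DN2, 312 ± 28.2 (n = 5) in WT DN3, 334 ± 80.2 (n = 5) in HET DN2, 439 ± 111 (n = 6) in HET DN3 and 740 ± 173 (n = 5) in HOM. Its make-up differed between the stages. Srgn gave 43.1% and Gzma 27.1% of the sum in WT DN2, whereas Gzma gave 63.0% and Srgn 23.7% in WT DN3. Nkg7 gave 22.3% in WT DN2, 9.92% in WT DN3, 4.54% in HET DN3 and 1.68% in HOM. The ratio of Gzma to Nkg7 per length was 1.23 ± 0.34 in WT DN2, 6.79 ± 1.99 in WT DN3, 1.55 ± 1.5 in HET DN2, 16.7 ± 5.82 in HET DN3 and 47.3 ± 18.3 in HOM. No HOM ratio (24.5 to 74.9) reached down to a WT DN3 ratio (3.56 to 8.72), while HET DN3 ratios (11 to 27) overlapped those of HOM.

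**Figure D3:**
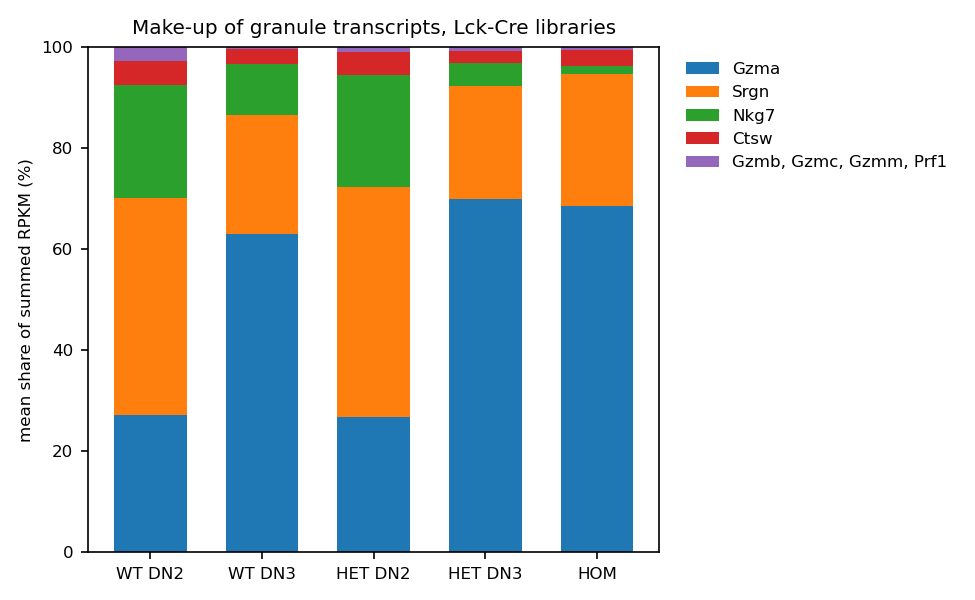
Mean share (%) of each gene in the summed RPKM of the 8 genes, 1 stacked bar per Lck-Cre group, with Gzmb, Gzmc, Gzmm and Prf1 drawn together. Gzma takes 27.1% in WT DN2 and 68.6% in HOM, and Nkg7 goes from 22.3% to 1.68%.

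The comparison of HOM with WT DN3 asks how the genes differ when both Bcl11b alleles are floxed rather than none, at the same sort. Gzma was 2.56-fold, Srgn 2.49-fold and Ctsw 2.42-fold higher in HOM, and Nkg7 was 2.35-fold lower. Log2 changes are edgeR quasi-likelihood estimates with their standard error (SE), and a gene was called at a Benjamini-Hochberg adjusted p under 0.05. Gzma rose by 1.36 on the log2 scale (SE 0.24, adjusted p = 1.16e-04), Srgn by 1.31 (SE 0.25, adjusted p = 2.17e-04) and Ctsw by 1.28 (SE 0.32, adjusted p = 0.00275), each above WT DN3 in all 5 HOM libraries. Nkg7 fell by 1.23 (SE 0.39, adjusted p = 0.0167), with 4 of 5 HOM libraries below every WT DN3 library. Gzmc was called as well (adjusted p = 0.00905), but it passed the level minimum only through HOM and limma on log2(RPKM + 1) gave an adjusted p of 0.0505. Gzmb was not called (log2 change 1.56, SE 1.59, adjusted p = 0.457).

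Leaving out Gzmc, which had to differ to be tested, 3 of the other 5 tested genes were called higher and 1 lower in HOM than in WT DN3, and their median log2 change was 1.31. Over all 12218 genes tested, 39.4% were called, 19.8% higher and 19.7% lower, and the median was 0.01, so a call in this contrast is common. The Nkg7 call depended on the libraries included. Without WT DN3 library 5, the one with high Cpa3, the log2 change was -1.0 (adjusted p = 0.0596), and without the 6 libraries with epithelial transcripts it was also -1.0 (adjusted p = 0.0551). Without all 8 libraries that stood apart it was -1.0 (adjusted p = 0.0595). Gzma, Srgn and Ctsw remained called under each of these exclusions. Markers moved between these groups as well. Besides the lower early T cell sum, the 9 mature T cell markers summed to 234 to 421 RPKM in HOM and 142 to 247 RPKM in WT DN3. That sum was also high in the DN2 groups, at 392 to 595 RPKM in WT DN2 and 280 to 426 RPKM in HET DN2. Mean Cd4, 1 of the 9, was 2.10 RPKM in HOM and 2.05 RPKM in WT DN3. The progenitor transcripts Cpa3 and Kit were at 61.3 ± 24.3 and 49.7 ± 9.81 RPKM in HOM, against 5.97 ± 11.3 and 9.43 ± 3.46 RPKM in WT DN3 (SD, n = 5 each). Cpa3 was at 58.0 ± 6.49 RPKM in WT DN2 (n = 4) and 56.5 ± 21.4 in HET DN2 (n = 5), near its HOM level. Kit was at 23.5 ± 5.23 and 25.2 ± 3.93 RPKM in those groups. The HOM label names no stage. The part of these markers in the granule gene changes was not tested.

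**Figure D4:**
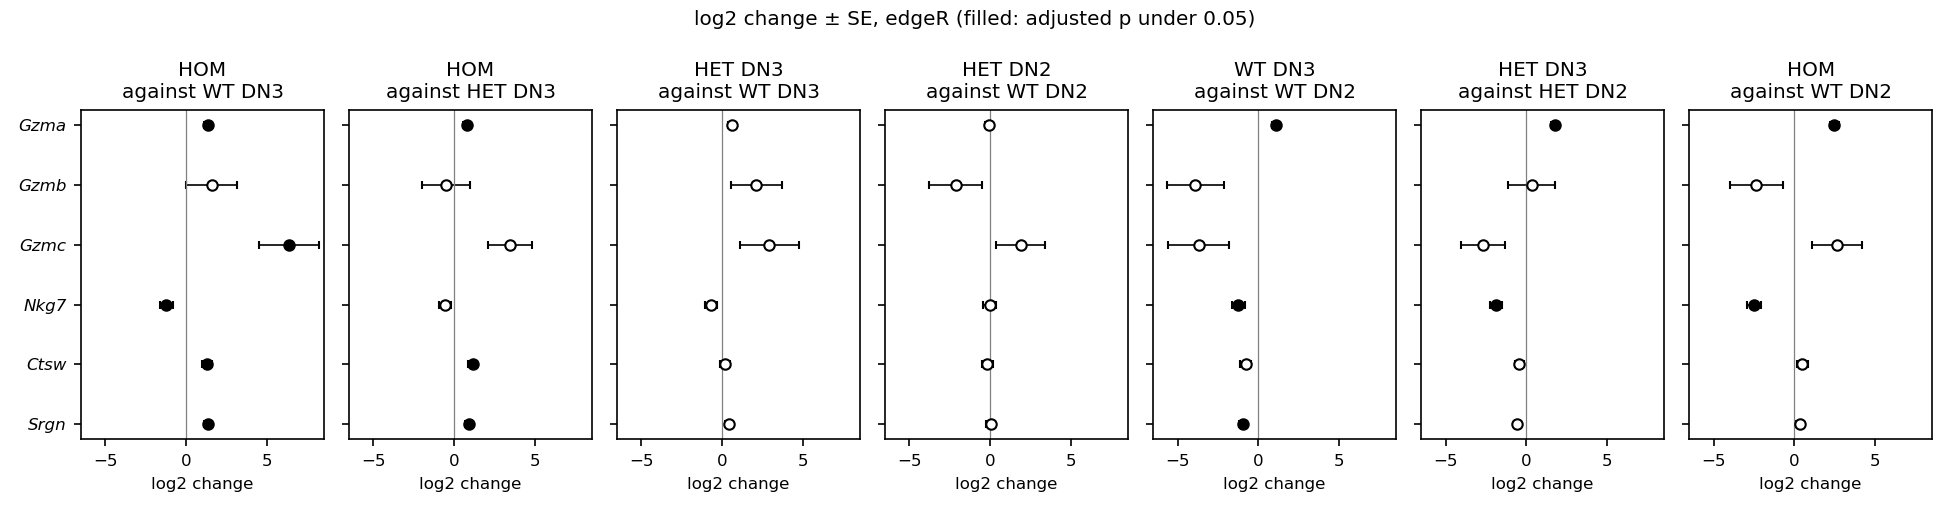
Log2 change with SE of the 6 tested genes in 7 Lck-Cre comparisons by edgeR, filled where the adjusted p was under 0.05. Gzma is filled in 5 panels, always to the right of 0, and Nkg7 in 4, always to the left, and neither HET comparison with WT holds a filled point.

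Against HET DN3, HOM differed by less. Gzma was 1.71-fold higher (log2 change 0.77, SE 0.23, adjusted p = 0.0145), Srgn 1.86-fold (0.90, SE 0.23, adjusted p = 0.00599) and Ctsw 2.18-fold (1.12, SE 0.30, adjusted p = 0.00709). These 3 genes, all higher, were the ones called of the 5 other than Gzmc, with a median log2 change of 0.77, while 24.8% of all genes were called, 11.8% higher and 13% lower, with a median of -0.02. Nkg7 was not called (log2 change -0.56, adjusted p = 0.308), nor was Gzmc (adjusted p = 0.0732). With the replicate number as a block, calls over all genes went from 3034 to 1507. The block results of Gzma, Srgn and Ctsw are not given here. Calls in this comparison also depended on the libraries included. Without HOM library 5, Gzma had a log2 change of 0.58 (adjusted p = 0.0646) and Nkg7 one of -1.12 (adjusted p = 0.0208). Without the 6 libraries with epithelial transcripts Srgn had one of 0.75 (adjusted p = 0.0530).

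A single floxed allele was compared with none at each stage. At DN3 none of the 6 genes was called, while 7.37% of all genes were, 4.31% higher and 3.06% lower. Gzma came nearest, 1.5-fold higher than in WT DN3 (log2 change 0.59, SE 0.23, adjusted p = 0.0942), with 5 of 6 HET DN3 libraries above every WT DN3 library, and DESeq2 gave an adjusted p of 0.0484. Nkg7 had a log2 change of -0.68 (SE 0.37, adjusted p = 0.223). At DN2 neither the granule genes nor any other gene was called (0%, although 912 genes had an unadjusted p under 0.05 and DESeq2 called 182), and the adjusted p of each granule gene was at least 0.874. Gzma had a log2 change of -0.11 (SE 0.25) and Nkg7 one of -0.05 (SE 0.41) at DN2, where the sorted cells were YFP-negative. A p that misses the threshold does not show that the groups are alike.

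At the stage step Gzma rose while Nkg7 and Srgn fell, and the other 3 tested genes were not called. From WT DN2 to WT DN3, Gzma rose 2.13-fold (log2 change 1.09, SE 0.26, adjusted p = 0.00452), whereas Nkg7 fell 2.39-fold (-1.25, SE 0.41, adjusted p = 0.0309) and Srgn fell 1.94-fold (-0.95, SE 0.26, adjusted p = 0.0109). For each of these 3 genes and for Ctsw, WT DN2 and WT DN3 did not overlap. The share of all genes without overlap was not computed, for this or any other Lck comparison. Ctsw had a log2 change of -0.78 (SE 0.33, adjusted p = 0.0945). With 1 gene higher and 2 lower of 6, the median was -1.10, and 21.5% of all genes were called, 12.2% higher and 9.3% lower, with a median of -0.02. These calls come from the main test, which ignores that same-numbered WT libraries deviated together. With the replicate number as a block, Ctsw (-0.77, adjusted p = 0.0163) and Gzmb (-3.04, adjusted p = 0.0267) were called too. Nkg7 lost its call when any 1 of 7 libraries was left out (adjusted p from 0.0550 to 0.0760), although its log2 change stayed between -1.14 and -1.25, and Gzmb went from -3.92 to -0.51 without the 2 libraries with mature T cell transcripts.

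From HET DN2 to HET DN3, Gzma rose 3.45-fold (log2 change 1.79, SE 0.24, adjusted p = 1.10e-04) and Nkg7 fell 3.68-fold (-1.88, SE 0.37, adjusted p = 0.00281), both without overlap. These were the 2 of 6 genes called, against 10.9% of all genes, 6.36% higher and 4.52% lower. That split over all genes turned under other fits, from 777 higher and 552 lower to 207 and 254 with only the compared groups and to 23 and 119 with the replicate block. Srgn was not called (-0.55, SE 0.23, adjusted p = 0.129), but without library 1 of HET DN3 its change was -0.90 (adjusted p = 0.00203). Under the replicate block the adjusted p of Gzma was 0.0530. The difference between the stage steps of HET and WT was itself tested. It was 0.69 for Gzma (SE 0.34, adjusted p = 0.557) and -0.62 for Nkg7 (SE 0.55, adjusted p = 0.771), and no gene at all was called (0%, with 1112 at an unadjusted p under 0.05 and 20 called by DESeq2).

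HOM was set against WT DN2 as well, a comparison in which reporter and genotype differ together. Gzma was 5.47-fold higher (log2 change 2.45, SE 0.27, adjusted p = 3.52e-07) and Nkg7 5.61-fold lower (-2.49, SE 0.42, adjusted p = 6.44e-05). The changes of Srgn (0.36, adjusted p = 0.277) and Ctsw (0.50, adjusted p = 0.240) did not pass the test. Thus, of the 5 genes other than Gzmc, 1 was called higher and 1 lower, with 41.2% of all genes called, 21.3% higher and 19.9% lower. Comparisons that share HOM or WT DN3 libraries are not independent of each other.

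In the Vav1-iCre set levels are counts per library total on a common scale, which cannot be set beside RPKM. Gzma was at 1939 and 1590.1 in WT, at 5462, 4595, 3804 and 3507 in HET and at 7512, 9231 and 5589.7 in HOM. Every HET library was above both WT libraries, and every HOM library was above every HET library. The share of all listed genes without overlap between groups was not computed in this set. HET against WT was tested, and Gzma rose 2.46-fold (log2 change 1.30, SE 0.25, adjusted p = 0.0221). It was the single granule gene of 6 called, while 2.22% of the 2076 listed genes were called, 1.78% higher and 0.434% lower. The authors listed those genes by their change in HOM, which WT or HET values also enter. The adjusted p and the shares therefore hold within a selected set only. With 2 WT libraries the call was lost when either was left out (log2 change 1.45, adjusted p = 0.102, and 1.16, adjusted p = 0.172) and when HET library 2 was (1.25, adjusted p = 0.0702), with changes about as large. The WT library that then stands alone is assumed to vary like the other groups. Nkg7 was at 731 and 769.8 in WT and at 520.2, 451, 493 and 659 in HET, which did not overlap but were not called (log2 change -0.50, adjusted p = 0.322). Srgn overlapped between WT and HET (log2 change 0.33, adjusted p = 0.641).

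HOM values in this table are a description, because the authors listed genes by their change in HOM. Accordingly 99.4% of listed genes were called in HOM against WT, 46.5% higher and 52.9% lower, and 100% against HET, 46.8% higher and 53.2% lower. Nkg7 was at 201, 271 and 237 in HOM, below every WT and HET library. Srgn was at 4327, 3825 and 3113, above all of them. Gzmb had 22, 36 and 49 counts in HOM, against 6 and 13 in WT and 1 to 13 in HET. Gzmc had 11, 97 and 126 counts in HOM, against 0 and 2 in WT and 0 to 4 in HET. Prf1 had 12, 18 and 7 counts in HOM, against 5 and 2 in WT and 2 to 4 in HET. Log2 changes of HOM against WT were 2.08 for Gzma, 1.27 for Srgn, 2.42 for Gzmb, 2.29 for Prf1 and -1.67 for Nkg7. Ccl5 was also higher in HOM, at 8.23 to 47.3 on the same scale, against 1.75 and 8.05 in WT. The ratio of Gzma to Nkg7 per length was 2.19 ± 0.38 (n = 2) in WT, 7.81 ± 2.24 (n = 4) in HET and 29.4 ± 6.69 (n = 3) in HOM.

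**Figure D5:**
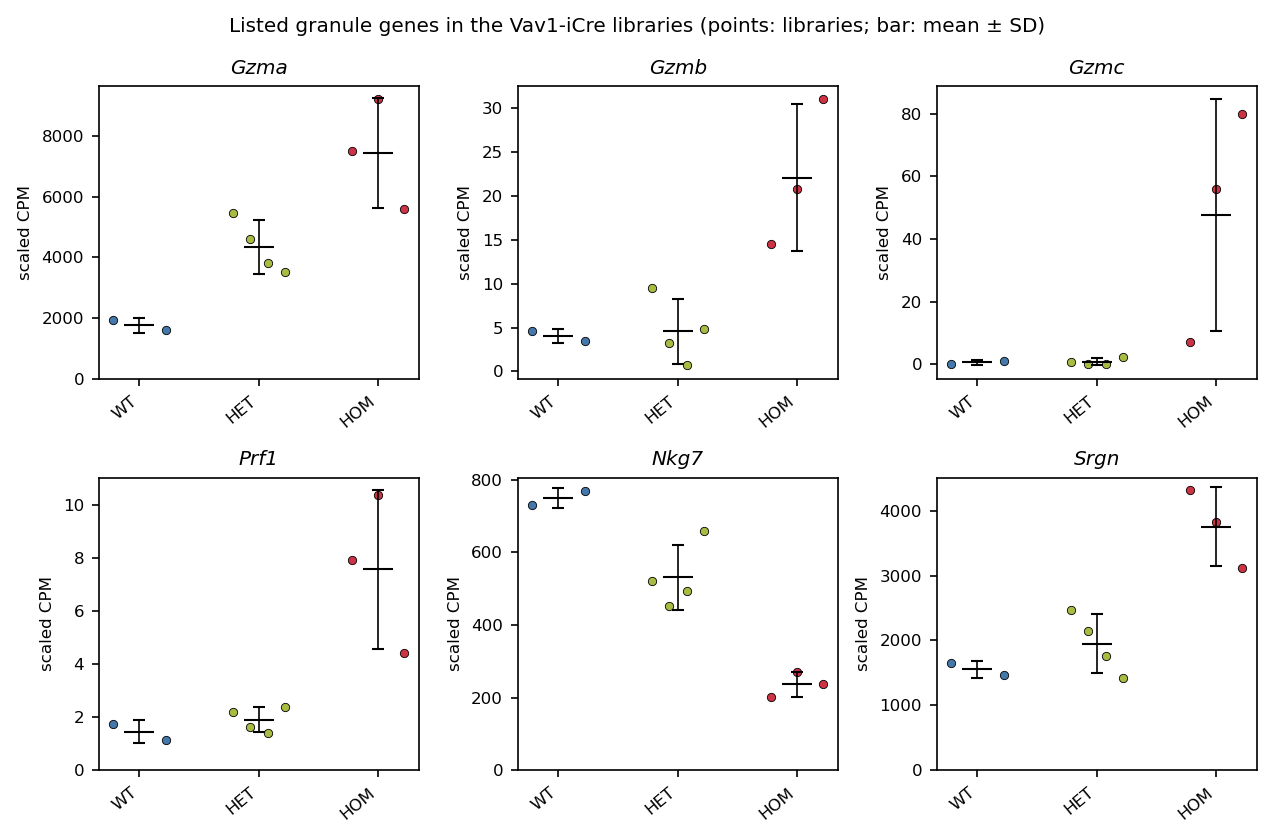
Scaled counts (CPM) of the 6 listed genes in the 9 Vav1-iCre libraries, 1 panel per gene, points for libraries and bars for the mean ± SD. HOM lies above HET for Gzma, Gzmb, Gzmc, Prf1 and Srgn and below it for Nkg7, in genes that the authors had listed by their change in HOM.

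Other genes of the granule pathway were taken from lists chosen beside the 8 genes. Of the transport and exocytosis list, 9 of 10 genes were tested, and in HOM against WT DN3 only Sytl2 was called higher and Rab27a lower, with a median log2 change of 0.07 against 0.01 over all genes. That is 2 of 9 called, where 39.4% of all genes were. Sytl2, which tethers granules to the plasma membrane, rose from 1.93 ± 0.92 to 7.21 ± 2.61 RPKM (n = 5 each, log2 change 1.87, adjusted p = 1.27e-04). Rab27a, the small GTPase that docks granules, fell from 55.5 ± 6.43 to 23.2 ± 6.0 RPKM (-1.28, adjusted p = 2.12e-07). Stx11 and Lyst, known from granule fusion and lysosome size, had changes of 2.48 (adjusted p = 0.0613) and 0.43 (adjusted p = 0.0665). Against HET DN3, 2 of the 9 were called higher and 1 lower, where 24.8% of all genes were called.

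Of 11 processing enzymes and inhibitors, all tested, 5 were higher and none lower in HOM than in WT DN3, with a median of 0.45, while 19.8% of all genes were higher and 19.7% lower. Serpinb9, an inhibitor of granzyme B, went from 2.04 ± 0.17 RPKM in WT DN3 to 7.14 ± 0.76 in HOM (log2 change 1.78, adjusted p = 7.37e-08). Serpinb6b, a mouse inhibitor of granzyme A, rose by 1.64 (adjusted p = 1.06e-06). Ctsc, cathepsin C, which activates granzymes, rose by 0.54 (adjusted p = 1.35e-04), and Cst7, cystatin F, its inhibitor, by 2.27 (adjusted p = 0.00153). Serpinb9 and Serpinb6b were also called higher in HET DN3 against WT DN3 (0.69, adjusted p = 0.0296, and 0.76, adjusted p = 0.0308). In that comparison none of the 6 tested granule genes and 7.37% of all genes were called. Calls over all genes there went from 900 to 65 with only the compared groups. Without all 8 libraries that stood apart they went to 75. Whether Serpinb9 and Serpinb6b stayed called in those fits was not examined.

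Of the death ligands and effector cytokines, 7 of 10 were tested. In HOM against WT DN3, 2 were higher, none lower and 5 not called, where 39.4% of all genes were called and 19.8% were higher. The median log2 change was 2.28 there, but -0.12 against HET DN3 (1 higher, 1 lower) and -0.82 against WT DN2 (1 higher, 2 lower). In those 2 comparisons 24.8% and 41.2% of all genes were called. Mean Tnf was 1.43 RPKM in WT DN3 and 1.27 in HOM, and mean Ltb 34.8 and 32.7 RPKM. Tnfsf10, the death ligand TRAIL, rose from 5.91 ± 0.60 to 34.2 ± 3.13 RPKM (n = 5 each, log2 change 2.50, adjusted p = 1.64e-11), and the chemokine gene Xcl1 rose by 3.82 (adjusted p = 0.0393). Ccl4 and Ccl5 were not called (adjusted p = 0.230 and 0.247). Of 12 transcription factors known for cytotoxic genes, 8 were tested, among them Zbtb16, which encodes PLZF and reached the level minimum through HOM alone (0.0338 RPKM in WT DN3 and 17.7 in HOM). Of the other 7, 3 were higher and 3 lower in HOM, with a median of 0.07. Nfil3, a factor of NK cell development, went from 0.817 to 14 and Runx3, a factor of cytotoxic T cells, from 16.5 to 41.7 RPKM. Zeb2, a factor of terminal effector cells, fell from 2.42 to 0.750 RPKM (log2 change -1.71, adjusted p = 6.69e-07). Of the remaining 6 granzymes, none reached the level minimum.

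The genes whose levels ran most like each tested granule gene were found by Pearson's r of log2(RPKM + 1) over the 25 Lck-Cre libraries, which share groups and the libraries that stand apart, so r is a description. For Nkg7 they were Alox5ap (0.97), Ctla2a (0.96) and Gm2a (0.96). Gzma was followed by Arsi and Sh2d1a (0.90 each), the latter encoding the signalling adaptor SAP, and by 2210016F16Rik (0.90). For Gzmb they were Il18r1 (0.90), Cd226 (0.89) and Ccl5 (0.89), and for Gzmc they were 0610009B22Rik (0.82), Tmem258 (0.79) and Hexim1 (0.75). Ctsw ran most like Traf3ip2 (0.90), Ankzf1 (0.87) and Rbm43 (0.86), and Srgn most like Myo1f (0.90), Pla2g16 (0.89) and Acot11 (0.89). No granule gene was among the nearest 3 of another. Between the granule genes, r ran from -0.76 for Gzma with Nkg7 to 0.62 for Ctsw with Srgn.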

How the data were processed

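Both deposited tables hold counts, raw reads over exons as HOMER gives them per the file headers, although the table names say RPKM. The deposited Length column gives the exon length in bases. Per the labels, each library came from 300000 cells and was read as 50-nt single ends. Tools in the submitters' processing notes are edgeR 3.6.8, HOMER, RSEM 1.2.25, STAR 2.4.0 and Trimmomatic 033, and builds are mm9 and NCBIM37. Whether counting used strand is not given in the sources used here, so antisense reads cannot be told apart.

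In 10 of the 25 Lck columns 26 values of Marc, March and Sept symbols are missing, and the values were moved down past them. Prf1 and Nkg7 moved by 13 rows and Srgn by 26. Over their neighbouring genes, the correlation with the unaffected columns was between -0.114 and 0.154 as deposited and at least 0.981 as restored. Of 24505 names 24365 were kept, the others being the 26 symbols and 114 of unsettled order.

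Genes that reached a group mean of 1 RPKM in 1 group or more were tested with edgeR 4.0.16 (quasi-likelihood test, TMM, trended dispersion, 2-sided, Benjamini-Hochberg over 12218 genes, 5 groups in 1 fit) in R 4.3.3. SE was computed back from the F statistic. Alternatives used limma 3.58.1, DESeq2 1.42.0, other filters and scalings, left-out libraries and a replicate block. The script was tested on simulated data. The Vav table, with 1104 listed genes lower and 972 higher in HOM, was scaled by centring the gap between them on 0, and its full depth is unknown. Its listed genes sum to between 1329826 and 2836293 counts. Intervals and the limit that 0 counts allow cover counting error only.

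Deviations of same-numbered libraries were compared. In WT DN3 and WT DN2 all 4 pairs correlated (r from 0.220 to 0.580, across genes). The main test used no replicate block, so its WT stage step ignores this pairing. In HOM and HET DN3 the r of same-numbered pairs ran from -0.0727 to 0.618. In HET DN3 and HET DN2 it ran from -0.527 to 0.625. The main test ignores these pairings as well. The replicate block was run as an alternative, and its results are given beside the main ones for some genes and comparisons only. Named genes were the 8 granule genes, up to 4 members of each list with the smallest adjusted p in HOM against WT DN3, and the 3 most similar genes. Members and lists were chosen with earlier results of these data known. Markers and other genes of the libraries that stand apart were named where a value beside a result needed them.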

Additional observations from a re-analysis of the deposited data

Results flagged for a closer look

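Single libraries were flagged that lay far from the rest of their group, by the gap to the nearest library as a share of the group's range. For normally distributed values chance alone flags about 1 in 20, and the rate for skewed levels near 0 is not known. Flags fell on 11 of the 46 gene and group combinations tested. Of these, 4 belonged to library 2 of WT DN2, with Gzmb at 33.7 RPKM (next 1.56), Gzmc at 0.615 (next 0.0766), Gzmm at 1.19 (next 0.528) and Prf1 at 1.73 (next 0.115), the library that also held Cd4 at 69.4 and Ccl5 at 56.9 RPKM. Library 4 of HET DN2 held Gzmb at 6.89 RPKM (next 1.78) and Prf1 at 0.377 (next 0.0764), with Ccl5 at 10.9 RPKM. Library 1 of HOM held Gzmb at 6.29 RPKM (next 1.32), with Ccl5 at 23.2 RPKM. Gzmc was at 3.18 RPKM in library 5 of HET DN2 (next 0.178), and at 0.0623 RPKM, a single count, in library 1 of WT DN3. Nkg7 was at 30.7 RPKM in library 5 of HOM (next 12.0), the HOM library with the highest Gzma (752 RPKM) and the highest Cpa3 (87.9 RPKM). Srgn was at 211 RPKM in library 1 of HET DN3 (next 96.3), which also held Cd4 at 80.3 and the erythroid transcript Hba-a1 at 884 RPKM. The part of these other transcripts in the levels was not tested.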

How the results depend on the processing

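Counts of called genes moved most for HET DN3 against WT DN3. Against 900, they were 1877 with DESeq2, 458 with limma, 438 without a level filter, 65 with only the compared groups, 350 with the replicate block, 212, 232 and 75 without the 6 epithelial, the 2 mature T cell and all 8 libraries, and 10 to 1662 with 1 library left out. In HET DN2 against WT DN2 (0), DESeq2 called 182 genes, the block 3, and leaving out the 6 or all 8 libraries 1 each. For the difference of stage steps (0), DESeq2 called 20, and leaving out the 6 or all 8 libraries gave 2 and 5. The block called 1507 in HOM against HET DN3 (3034). For WT DN3 against WT DN2 (2622), the compared groups alone gave 4497 and the replicate block 5508. For HET DN3 against HET DN2 (1329, 777 higher to 552 lower) they gave 461 (207 to 254) and 142 (23 to 119), and 838 to 1632 came with 1 library left out. In Vav HET against WT (46), DESeq2 called 140, the block 189, and leaving out 1 library 24 to 63. With limma, the split of higher and lower calls was 1053 to 1665 in WT DN3 against WT DN2 (1486 to 1136) and 316 to 142 in HET DN3 against WT DN3 (main test: 526 to 374). Other counts stayed within 1.5 times.

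No called log2 change of a granule gene reversed. Uncalled ones changed sign as follows. In HET DN2 against WT DN2, Srgn (0.02) was -0.029 with limma, -0.018 without a level filter and -0.15 with the block, and Gzmc (1.88) was -2.0 with the block. Nkg7 (-0.05) was 0.27, 0.012 and 0.34 without the 6, the 2 and all 8 libraries, Gzmb (-2.13) was 1.27 and 1.99 without the 2 and all 8, and Ctsw (-0.20) was 0.0035 without the 2. In the difference of stage steps, Gzmc (1.03) was -0.11 with limma, -0.62 without the 2 and -0.56 without all 8, and Srgn (0.40) was -0.11 without all 8. Ctsw in HET DN3 against WT DN3 (0.15) was -0.15 with the block, and Gzmc in Vav HET against WT (0.72) was -0.52. Without the 2 libraries, Gzmb was 0.058 in HOM against HET DN3 (-0.54), -0.28 in HET DN3 against HET DN2 (0.31; -0.25 without all 8) and 1.05 in HOM against WT DN2 (-2.35; 1.73 without all 8). With 1 library left out, the HET DN2 against WT DN2 changes ranged from -0.36 to 0.064 for Gzma, -3.38 to 1.27 for Gzmb, -2.03 to 3.50 for Gzmc, -0.32 to 0.13 for Nkg7, -0.44 to 0.0034 for Ctsw and -0.14 to 0.11 for Srgn. Gzmb ranged from -3.93 to 1.05 in HOM against WT DN2, -0.018 to 2.27 in HOM against WT DN3, -0.28 to 1.57 in HET DN3 against HET DN2, -2.12 to 0.061 in HOM against HET DN3 and -0.43 to 0.49 in Vav HET against WT. Gzmc ranged from -0.58 to 4.95 in the difference of stage steps, -3.22 to 1.25 in HET DN3 against HET DN2 and -0.85 to 3.59 in Vav HET against WT, and Ctsw from -0.046 to 0.31 in HET DN3 against WT DN3. The cause of these moves was not tested.

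Calls gained included those of Gzmc, which was tested only because of its HOM level, in HOM against HET DN3 with the block (adjusted p = 0.0252), and without the 6 or all 8 libraries (0.0370 and 0.0412), and in HOM against WT DN2 without them (0.0228 and 0.00584), and that of Srgn in HOM against WT DN2 with only the compared groups (0.0175) or without all 8 (0.0416), by edgeR. Below the level filter, Gzmm and Prf1 were not called in any Lck comparison among 17076 genes with at least 10 counts. Gzmb, Gzmc, Gzmm and Prf1 are limited by depth, with many libraries under 50 counts.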

Other observations

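Further motifs were looked for on both strands of the 250 bases before the first listed start of each gene. The search took the 7 matched promoters and 27025 mouse promoters (RefSeq, GRCm38.p6), with the expression results known. The T-box letters AGGTGTGA occurred in Nkg7 alone, at bases 14 to 7 before the start, and in 1.14% of promoters. The STAT letters TTCNNNGAA occurred in Gzmm and Nkg7 and in 7.18% of promoters. The TATA letters TATAAA occurred in Srgn and in 13% of promoters. The E-box letters CAGNTG occurred in Gzma, Gzmb, Prf1, Nkg7 and Srgn and in 44.5% of promoters.

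Gzmk, another granzyme, had 57 counts over the 6 HET DN3 libraries and 24 over the 4 WT DN2 libraries, against 1 or 2 in each of the other Lck groups. Its highest levels were 3.41 RPKM in library 1 of HET DN3 and 1.69 RPKM in library 2 of WT DN2, the same libraries that held Cd4 at 80.3 and 69.4 RPKM. Of the remaining granzymes, 2 of 6 were listed in the Vav table, Gzme and Gzmg. Stx11 was at 15.9 RPKM in 1 HET DN3 library, while the mean of the 5 HOM libraries was 0.760 RPKM.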
